A study of Mus musculus with 7 samples.

Results

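The genes described here are 52 type I interferon-stimulated antiviral genes. They were taken by symbol from a list of well-known interferon-stimulated genes, and all 52 were found in both expression tables of the study, of 55352 genes in the adeno-associated virus (AAV) table and 48440 in the LPS table. All 52 also passed the filter on low values, as did 11218 and 17854 genes in all. Bone-marrow-derived macrophages (BMDMs) of WT mice were grown from marrow with M-CSF. For the first experiment, LPS, a bacterial cell wall component, was given at 100 ng per mL for 2 h or 4 h or not at all (0 h), and each time point has 1 library. For the second, BMDMs were infected for 48 h with AAV-GFP as the control or with AAV-Shisa3, which the labels give as Shisa3 overexpression, with 2 samples per group. Every sample of the second experiment was therefore exposed to an AAV vector, and no unexposed sample among those analysed here belongs to that experiment. The labels give neither the age or sex of the mice, the promoter of the vector, nor whether the samples of a group came from separate mice or cultures, so p-values measure only the spread between these samples.

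Cells that detect microbial products make interferon-β. It binds the interferon-α/β receptor on the same and on neighbouring cells, and the kinases JAK1 and TYK2 then start a signal that reaches DNA at interferon-stimulated response elements (ISREs), where STAT2 and IRF9 act. The genes switched on in this way block viral entry, translation, RNA stability and assembly. In macrophages, LPS reaches this pathway through TLR4 and the adaptor TRIF.

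The promoters of 5 of the genes are shown because they carry the ISRE core in differing numbers, or not at all, while all 5 genes were far higher after LPS. The ISRE core was searched as GAAA and GAAA separated by any 2 bases, on both strands. Matches are in capitals, and on the strand opposite to the gene the core reads as TTTC and TTTC. Each sequence is the 250 bases before a RefSeq transcription start (GRCm38.p6), written 5′ to 3′ on the strand of the gene. Ifit1 lies at chr19:34640639-34640888 on the plus strand, Rsad2 at chr12:26456453-26456702 on the minus strand, Isg15 at chr4:156200819-156201068 on the minus strand, Ifit2 at chr19:34550444-34550693 on the plus strand and Cmpk2 at chr12:26468965-26469214 on the plus strand.
Ifit1: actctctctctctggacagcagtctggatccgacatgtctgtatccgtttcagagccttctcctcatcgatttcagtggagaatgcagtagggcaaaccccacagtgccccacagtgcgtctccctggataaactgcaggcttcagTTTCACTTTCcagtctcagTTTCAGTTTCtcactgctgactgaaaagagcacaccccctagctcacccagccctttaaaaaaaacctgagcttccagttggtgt
Rsad2: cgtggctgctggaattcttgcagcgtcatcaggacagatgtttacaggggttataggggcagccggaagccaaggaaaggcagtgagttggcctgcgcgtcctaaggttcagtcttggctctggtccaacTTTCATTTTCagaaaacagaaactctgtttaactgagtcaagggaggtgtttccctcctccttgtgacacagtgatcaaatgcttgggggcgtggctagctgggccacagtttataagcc
Isg15: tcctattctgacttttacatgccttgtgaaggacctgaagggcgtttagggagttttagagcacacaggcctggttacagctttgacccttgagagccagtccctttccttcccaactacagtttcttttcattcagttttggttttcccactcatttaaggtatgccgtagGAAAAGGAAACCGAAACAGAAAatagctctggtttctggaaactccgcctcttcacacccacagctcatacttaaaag
Ifit2: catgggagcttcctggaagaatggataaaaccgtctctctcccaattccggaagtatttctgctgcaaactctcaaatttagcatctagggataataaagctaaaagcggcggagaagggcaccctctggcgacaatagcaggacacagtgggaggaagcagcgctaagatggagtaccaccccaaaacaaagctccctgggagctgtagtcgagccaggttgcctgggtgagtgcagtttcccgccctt
Cmpk2: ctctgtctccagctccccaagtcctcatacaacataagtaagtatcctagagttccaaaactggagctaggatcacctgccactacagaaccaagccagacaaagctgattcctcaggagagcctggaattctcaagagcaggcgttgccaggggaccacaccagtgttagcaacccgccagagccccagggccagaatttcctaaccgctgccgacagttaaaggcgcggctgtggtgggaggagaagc
Ifit1 held 2 separate matches, Rsad2 held 1, and Isg15 held 3 matches in a row, each overlapping its neighbour. The Ifit2 window and the Cmpk2 window held none, which says only that these letters are not in these windows.

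Each LPS value is the number of reads of a gene over a factor common to its library. The shallowest of the LPS libraries was the one at 2 h, with 7263258 recovered reads, against 15588502 for 0 h and 32659392 for 4 h. The AAV values were read as TPM (a share of the library scaled by transcript length), and their read depth is unknown. The log2 values of all genes had a Pearson correlation of 0.989 within the AAV-GFP pair and 0.986 within the AAV-Shisa3 pair. All 10 macrophage markers were present in every sample of both experiments. Of these, Cd14, a co-receptor for LPS, rose with AAV-Shisa3 (735 and 712 TPM against 1199 and 1282 TPM, log2 fold change 0.78 ± 0.07, limma adjusted p = 0.0153), and Cd14, Fcgr1 and Spi1 were at least 2-fold higher at 2 h and 4 h of LPS, with Cd14 11.3-fold higher at 2 h. Shisa3 itself stood at 7.88 and 10.9 TPM (AAV-GFP) against 12.3 and 17.8 TPM (AAV-Shisa3), which did not pass the test (log2 fold change 0.63 ± 0.22, standard error; limma adjusted p = 0.138). Only 1 read of Shisa3 was counted at 0 h of LPS, against 3174 at 4 h.

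The whole set of genes was higher after LPS in these libraries. At 2 h, 50 of the 52 genes were at least 2-fold higher than at 0 h, where 20.5% of all genes were. At 4 h, 52 of 52 were at least 2-fold higher, against 22.2% of all genes, and 43 were at least 8-fold higher, against 4.86% of all genes. The median fold was 6.70 at 2 h and 12.6 at 4 h (log2 2.74 and 3.65), while the median log2 change over all genes was -0.05 and -0.04. The folds at 4 h ran from 2.59 for Ly6e to 468 for Ifi205. Together the 52 genes took 0.650% of the reads at 0 h, 4.14% at 2 h and 6.54% at 4 h. With 1 library per time point there is no test, so a gene is said to have risen with LPS where it was at least 2-fold higher, and the intervals given below are 95% exact binomial intervals that cover counting error only. In bulk RNA, a larger share of responding cells and more RNA per cell cannot be told apart. Of the 10 neutrophil markers, 5 were at least 2-fold higher and 1 lower at 2 h, and 0 higher and 2 lower at 4 h. These counts depended on the scaling. On library totals they were 1 and 1 at 2 h and 0 and 5 at 4 h, where 13.25% and 12.85% of all genes were higher. The median log2 change of all genes was then -0.71 and -0.83. With libraries centred on their medians they were 5 and 0 and then 4 and 1, where 26.93% and 29.6% of all genes were higher. The share of all genes at least 2-fold lower was not counted. Of the 6 plasmacytoid dendritic cell markers, Irf8 was 4.85-fold and 2.54-fold higher at 2 h and 4 h, and Ccr9, at 5, 7 and 62 reads, was also at least 2-fold higher at both times. Siglech, with 24 reads at 0 h, passed 2-fold at 2 h and Tcf4 at 4 h, and on library totals Ccr9 alone did at 4 h. The part of these markers in the result was not tested.

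The scale of the LPS folds depended on how the libraries were set against each other. With reads scaled to library totals, the median log2 change of all genes moved to -0.71 at 2 h and -0.83 at 4 h, and that of the 52 genes to 2.08 and 2.83. On that scale every fold at a given time is lower by 1 common factor, and 23 of the 52 genes were at least 8-fold higher at 4 h, against 3.01% of all genes. At 2 h, 23 were at least 8-fold higher on the deposited scale, against 3.94% of all genes, and 15 on library totals, against 2.64%. Relative to the median of all genes, the 52 genes stood 3.70 higher at 4 h on the deposited scale and 3.66 higher on the scale of library totals.

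From 2 h to 4 h most of the genes went on rising. At 4 h, 28 genes were at least 2-fold above their 2 h value, against 17.9% of all genes, 24 lay within 2-fold, and 0 were at least 2-fold lower. The value was highest at 4 h for 49 genes and at 2 h for 3 genes, Mx2, Slfn2 and Daxx, which Parp14 and Dtx3l joined on library totals to make 5. The median ratio of 4 h to 2 h was 2.10.

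**Figure D1:**
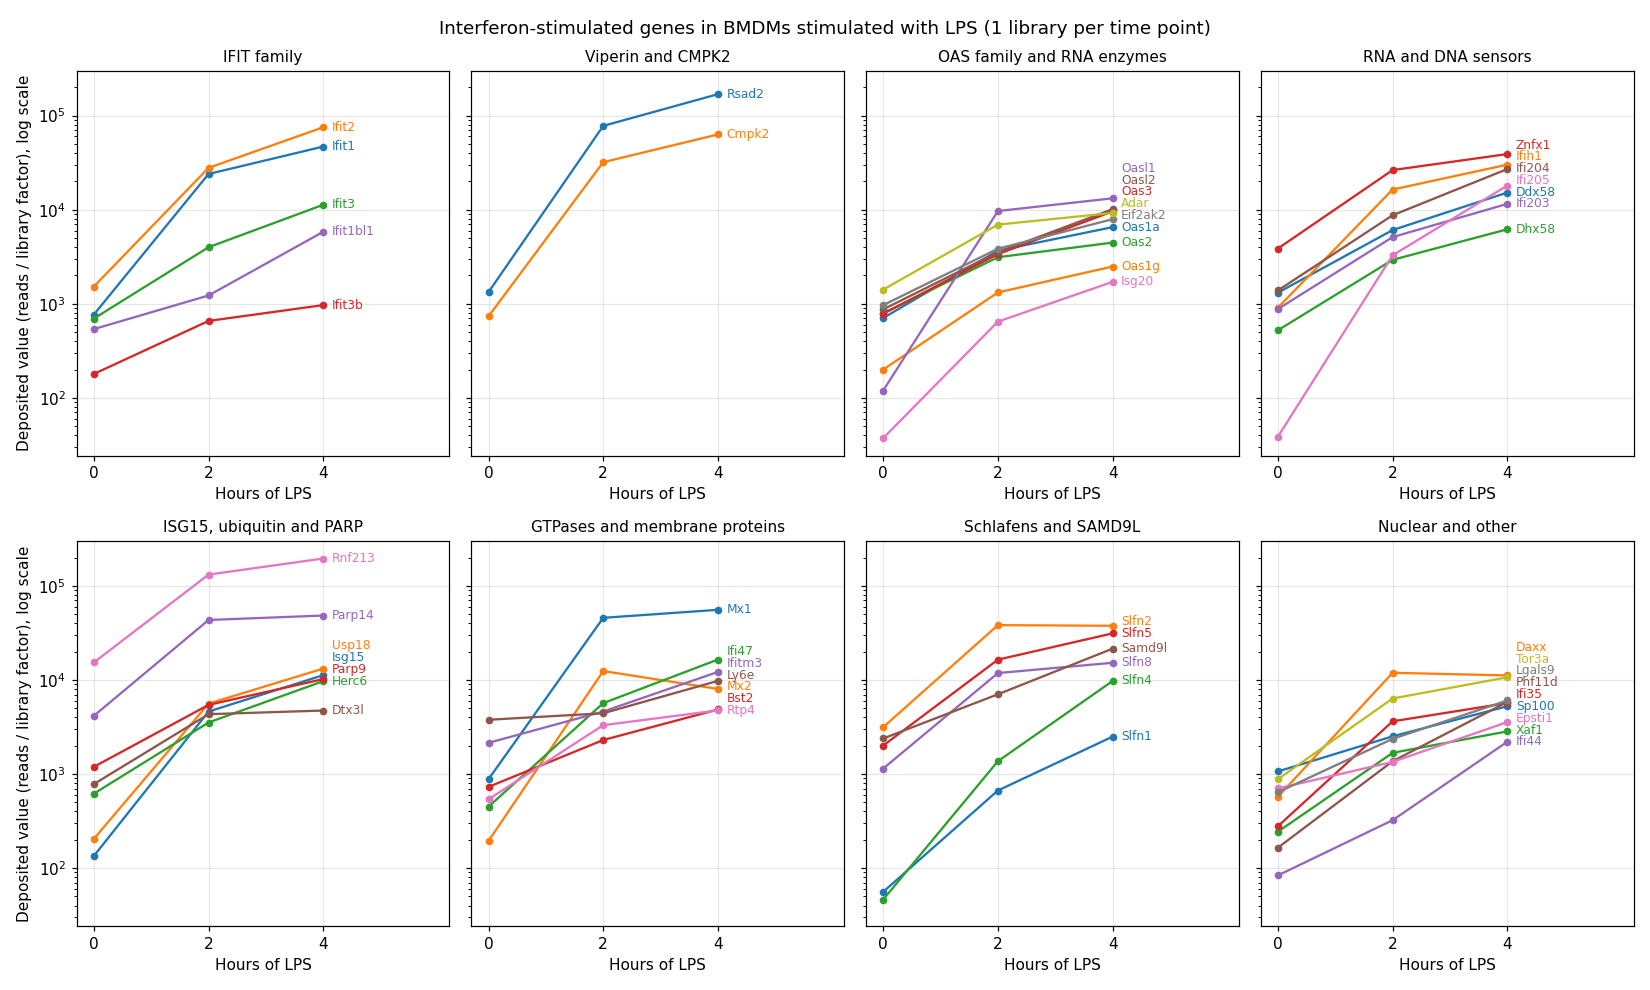
Deposited value (reads divided by a library factor, log axis) of each of the 52 genes against hours of LPS, in 8 panels by role, 1 library per point and no error bars. All 52 lines end above their start, from 2.59-fold for Ly6e to 468-fold for Ifi205, and Mx2 is the line that falls most from 2 h to 4 h.

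With AAV-Shisa3 against AAV-GFP, part of the set was higher. Of the 52 genes, 15 rose and 1 fell at a Benjamini-Hochberg adjusted p under 0.05 in limma's trended test over all 11218 genes, and 36 did not pass. Over all genes, 2.23% rose and 4.10% fell. The 15 were Ifit1bl1, Rsad2, Cmpk2, Ifi205, Ifit3b, Ifit2, Ifi47, Ifit1, Ifit3, Mx2, Oasl1, Mx1, Ifi203, Daxx and Slfn2, with log2 fold changes from 1.35 down to 0.36, and the gene that fell was Sp100. Both AAV-Shisa3 samples lay above both AAV-GFP samples for 30 genes, against 18.2% of all genes. Both lay below for 9 genes, against 41.2% of all genes, and the groups overlapped for 13. The median log2 fold change was 0.16, against -0.10 over all genes. With each sample centred on its median, the median over all genes moved to 0.01, the calls over all genes from 250 higher and 460 lower to 410 and 230, and those among the 52 to 18 higher and 0 lower.

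The AAV calls depend on limma's pooling of the spread over genes, since an exact two-sided permutation test of 2 samples against 2 cannot go below p = 0.333. Without the trend in limma's prior variance, 0 of the 52 passed at the adjusted threshold, and over all 11218 genes 1 rose and 4 fell. Without the filter on low values, 0 of the 52 passed, and 0 of all 20300 genes did. At an unadjusted p under 0.05 without the trend, 19 of the 52 were higher and 2 lower (7.23% and 19.1% of all genes). Without the filter, 21 and 4 were (5.51% and 11.9%). With the trend and the filter, 22 were higher and 6 lower at that threshold, against 8.21% and 19.8% of all genes. Leaving out either AAV-GFP sample also left 0 (unadjusted, 19 higher and 2 lower without the first, against 5.53% and 15.4% of all genes, and 19 and 3 without the second, against 6.88% and 11.6%), and leaving out the second AAV-Shisa3 sample left 3, Cmpk2, Ifit1bl1 and Rsad2. Calls over all genes also fell whenever a sample was left out. All 15 genes that rose kept a positive change under each of the 10 alternatives run, those leaving out a sample included. They were chosen from these same samples, so this is no independent support.

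Most neutrophil markers were higher in the AAV-Shisa3 samples as well. The summed level of the 10 markers was 593 and 565 TPM with AAV-GFP against 1092 and 683 TPM with AAV-Shisa3. All 8 tested had both AAV-Shisa3 samples above, against 18.2% of all genes, and 2 rose, Camp and Ngp, against 2.23%. Ly6g, which defines neutrophils, was at most 0.29 TPM and overlapped between the groups. Cxcr2 had both AAV-Shisa3 samples below, at 0.21 and 0.24 TPM with AAV-GFP against 0.14 and 0.14 TPM. Ly6g and Cxcr2 were under the filter and not tested. The 52 genes summed to 21012 and 19663 TPM with AAV-GFP against 23498 and 20831 TPM with AAV-Shisa3, so the first AAV-Shisa3 sample was the highest on both sums. The part of the neutrophil signal in the result was not tested. Without the first AAV-Shisa3 sample, the median log2 fold change of the 52 genes was 0.07, against 0.16 with all 4 samples. Without the second AAV-Shisa3 sample it was 0.25. Of the 8 T and NK cell markers, Cd3e, Cd3d, Ncr1, Gzma and Ifng were listed at 0 in all 4 samples, and Cd247, Nkg7 and Klrb1c were at most 0.61 TPM. The 6 plasmacytoid dendritic cell markers summed to 201 and 217 TPM with AAV-GFP against 244 and 248 TPM with AAV-Shisa3, most of it from Irf8, which macrophages also express. Siglech and Ccr9 were at most 0.33 TPM and Klk1 was at 0. Of the 3 tested, Irf8 and Cox6a2 had both AAV-Shisa3 samples above (log2 fold changes 0.25 and 0.62, limma adjusted p = 0.0859 and 0.0693) and Tcf4 overlapped. The part of these cells in the result was not tested.

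**Figure D2:**
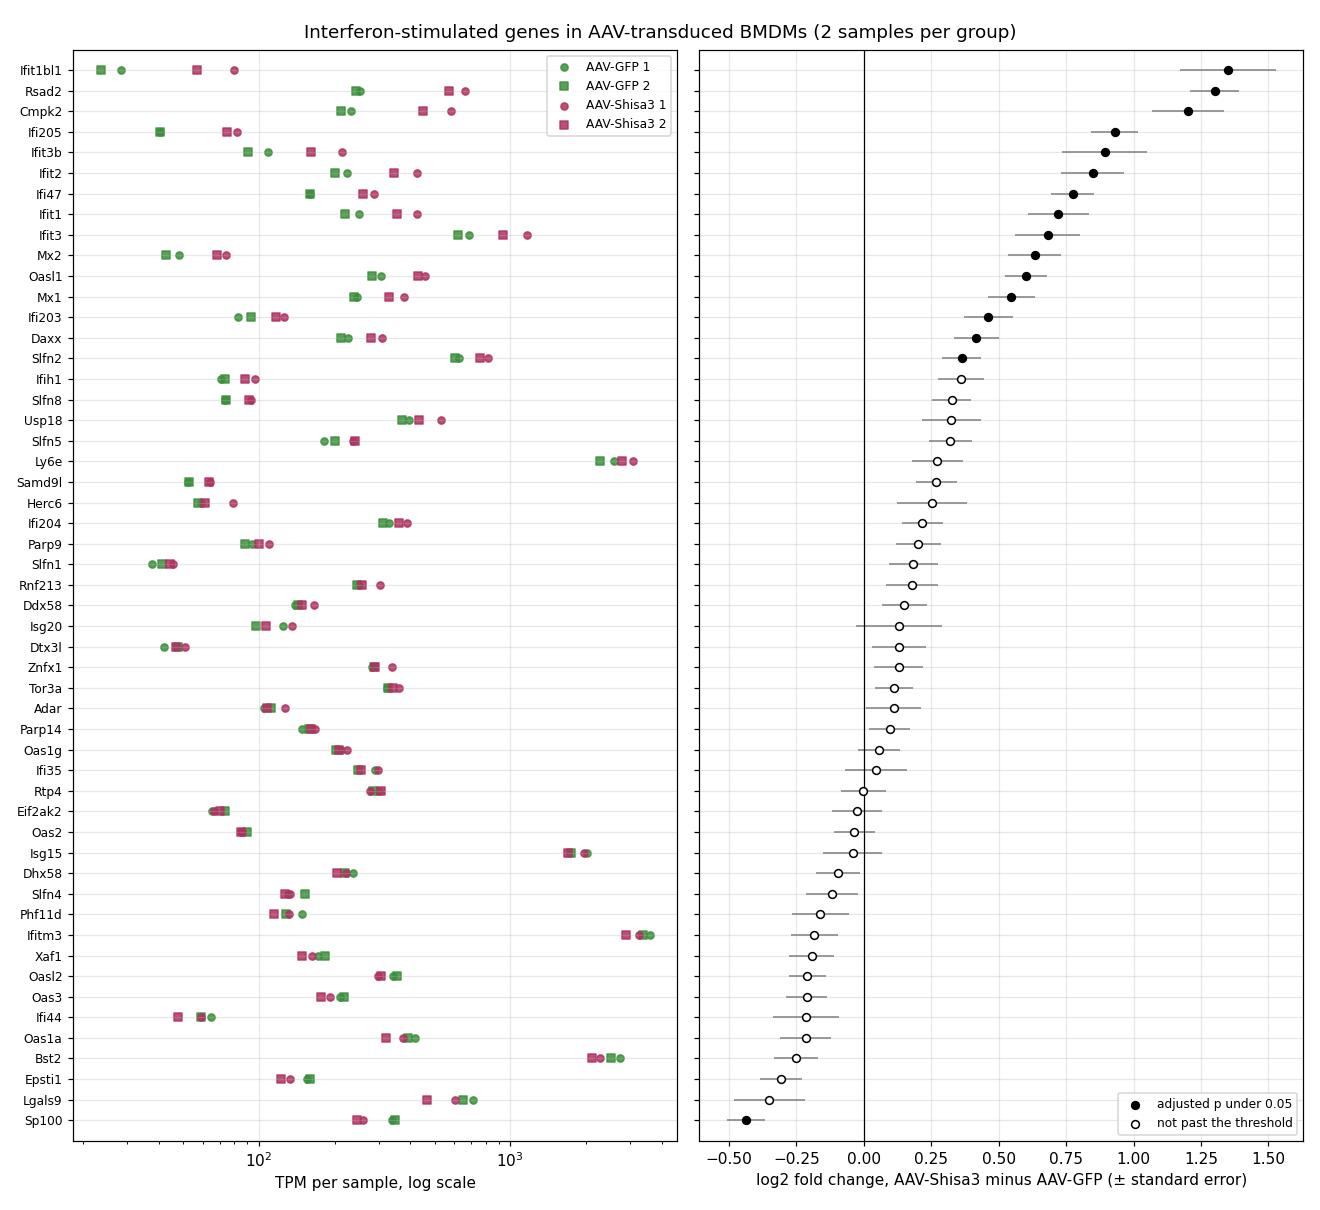
Left, TPM of each of the 52 genes in each of the 4 AAV samples (log axis), and right, the log2 fold change of AAV-Shisa3 minus AAV-GFP with its standard error, ordered by the change. Filled points are the 15 genes higher and the 1 lower at an adjusted p under 0.05, from 1.35 for Ifit1bl1 to -0.44 for Sp100.

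Rsad2 encodes viperin, a radical SAM enzyme that makes a chain-terminating nucleotide, and Cmpk2 encodes a mitochondrial nucleotide kinase that supplies its substrate. They showed 2 of the 3 largest changes with AAV-Shisa3. Rsad2 was at 252 and 244 TPM with AAV-GFP against 658 and 569 TPM with AAV-Shisa3, a log2 fold change of 1.30 ± 0.09 (standard error, 2 samples per group; limma adjusted p = 0.0113). Cmpk2 was at 232 and 213 TPM and at 584 and 450 TPM, a log2 fold change of 1.20 ± 0.13 (adjusted p = 0.0179). For both genes the groups were far apart, with the first AAV-Shisa3 sample the higher of the pair. With LPS, Rsad2 went from 1331 at 0 h to 77776 at 2 h and 169038 at 4 h, a 127-fold rise (122 to 133). Cmpk2 went from 736 to 32013 and 63068, or 85.7-fold (80.9 to 90.9). Rsad2 had 311068 reads at 4 h, more than any other of the set but Rnf213 with 359463.

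In the IFIT family, IFIT1 binds viral RNA that lacks host cap marks and blocks its translation. All 5 measured members, Ifit1, Ifit2, Ifit3, Ifit3b and Ifit1bl1, rose with AAV-Shisa3, and 4 of the 5 were at least 8-fold higher at 4 h of LPS. Ifit1bl1 was the lowest of the 5 in the AAV samples, at 28.2 and 23.5 TPM with AAV-GFP against 79.5 and 56.8 TPM with AAV-Shisa3, and it showed the largest log2 fold change of the 52 genes, 1.35 ± 0.18 (limma adjusted p = 0.0231). Ifit3 was the highest of the 5, at 684 and 622 TPM against 1170 and 938 TPM (0.68 ± 0.12, adjusted p = 0.0355). The samples of each group lay well apart from the other group for both genes.

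Ifit1 was at 249 and 221 TPM with AAV-GFP against 425 and 353 TPM with AAV-Shisa3 (log2 fold change 0.72 ± 0.11, adjusted p = 0.0295). Ifit2 stood at 224 and 201 TPM against 425 and 345 TPM (0.85 ± 0.12, adjusted p = 0.0237). The near-identical copy of Ifit3, Ifit3b, stood at 109 and 90.6 TPM against 213 and 161 TPM (0.89 ± 0.16, adjusted p = 0.0356). None of these groups overlapped. Ifit3 shares 31.6% of its 100-base stretches with Ifit3b, so reads could be split between the copies and their separate values are uncertain.

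The LPS folds of the IFIT genes at 4 h ran from 5.40 to 61.1. Ifit1 went from 767 at 0 h to 23966 at 2 h and 46878 at 4 h, or 61.1-fold at 4 h (57.7 to 64.7). Ifit2 went from 1525 to 27850 and 75229, or 49.3-fold. Ifit3 went from 696 to 3992 and 11278, or 16.2-fold. In fold, these 3 genes rose more before 2 h than after. Ifit1bl1, at 538, 1225 and 5826, rose 2.28-fold by 2 h and a further 4.76-fold by 4 h, so most of its rise came late. Ifit3b, at 179, 657 and 968, had the smallest fold of the group at 5.40 (4.75 to 6.14).

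The oligoadenylate synthetases make a second messenger that activates the nuclease RNase L, and the RNA enzymes grouped with them are the nuclease Isg20, the kinase PKR (Eif2ak2), which halts translation, and the RNA editor Adar. All 9 genes were higher at 4 h of LPS, but only 1 of the 9, Oasl1, rose with AAV-Shisa3. Oasl1, an OAS-like protein without synthetase activity, was at 305 and 282 TPM with AAV-GFP against 460 and 430 TPM with AAV-Shisa3 (log2 fold change 0.60 ± 0.08, limma adjusted p = 0.0220). Its values of 120, 9678 and 13216 over the LPS time course gave the largest fold of the group, 110 (95.6 to 128), and 80.9-fold was already reached at 2 h. The smallest fold of the group at 4 h was that of Oas2, with 792, 3127 and 4467, or 5.64-fold. Oas2 was at 84.9 and 89.7 TPM with AAV-GFP against 85.4 and 84.8 TPM with AAV-Shisa3, with overlapping groups.

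The neighbouring copies Oas1a and Oas1g share 40.9% of the 100-base stretches of Oas1a, and their split of reads is uncertain. Oas1a went from 706 to 3666 and 6526 with LPS, and Oas1g from 200 to 1321 and 2489. With AAV-GFP and AAV-Shisa3, Oas1a stood at 416 and 392 TPM against 375 and 322 TPM (-0.22 ± 0.10, adjusted p = 0.206). Oas1g stood at 213 and 202 TPM against 224 and 208 TPM (0.06 ± 0.08, adjusted p = 0.664). Both AAV-Shisa3 samples lay below both AAV-GFP samples for Oas1a, and the groups overlapped for Oas1g. Oas3 and Oasl2 also had both AAV-Shisa3 samples below (both log2 fold changes -0.21, adjusted p = 0.143 and 0.121), and Isg20, Eif2ak2 and Adar overlapped. Isg20 had the second largest LPS fold of the group, at 45.8 (35.4 to 60.5), from 58 reads at 0 h.

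The sensors recognise viral RNA (Ddx58, which encodes RIG-I, Ifih1, which encodes MDA5, Dhx58 and Znfx1) or belong to the DNA-binding p200 family (Ifi203, Ifi204 and Ifi205). Of the 7, 2 rose with AAV-Shisa3, both from the p200 family. Ifi205 was at 40.4 and 40.5 TPM with AAV-GFP against 81.7 and 74.3 TPM with AAV-Shisa3 (log2 fold change 0.93 ± 0.09, limma adjusted p = 0.0153). Ifi203 was at 82.9 and 93.2 TPM against 126 and 117 TPM (0.46 ± 0.09, adjusted p = 0.0447). The third, Ifi204, was at 329 and 312 TPM against 387 and 359 TPM, which did not overlap but did not pass (0.22 ± 0.08, adjusted p = 0.136). Ifi204 shares 16.8% of its 100-base stretches with other genes, most of them with Ifi211.

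Ifi205 was also the gene that rose most with LPS. Its value went from 38.6 at 0 h to 3278 at 2 h and 18059 at 4 h, from 60 reads to 1501 and 33232, or 468-fold (363 to 613). Ifi204 went from 1385 to 8726 and 27039, or 19.5-fold, and Ifi203 from 879 to 5114 and 11537, or 13.1-fold. The smallest fold of the sensors was 10.1 for the RNA helicase Znfx1, at 3863, 26372 and 39008, so that all 7 passed 8-fold, while 3 of the 7 did on library totals. Znfx1 was at 283 and 288 TPM with AAV-GFP against 337 and 289 TPM with AAV-Shisa3 (0.13 ± 0.09, adjusted p = 0.400). Ifih1 came close to the AAV threshold, with both AAV-Shisa3 samples above (0.36 ± 0.08, adjusted p = 0.0646). It passed when the samples were centred on their medians and with at least 1 TPM in every sample. Ddx58 and Dhx58 did not pass, with log2 fold changes of 0.15 and -0.10.

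ISG15 is a ubiquitin-like protein that is attached to other proteins; Herc6 attaches it and Usp18 removes it. The ADP-ribosyltransferases Parp9 and Parp14, the Parp9 partner Dtx3l and the giant ubiquitin ligase Rnf213 were grouped with them. None of these 7 genes rose or fell with AAV-Shisa3 at the adjusted threshold of limma, and 1 of them, Usp18, had an unadjusted p under 0.05. With the replicate number as a block, Usp18 passed the adjusted threshold. Isg15, at 2023 and 1745 TPM with AAV-GFP against 1963 and 1698 TPM with AAV-Shisa3, overlapped between the groups (-0.04 ± 0.11, adjusted p = 0.834). With LPS, Isg15 had the largest fold of the group, going from 134 to 4614 and 11240, or 83.6-fold (73.0 to 96.3). Isg15 therefore rose about as much with LPS as Cmpk2, while the 2 genes had log2 fold changes of -0.04 and 1.20 with AAV-Shisa3.

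Rnf213 took the most reads of the set at 4 h and is also the longest of the transcripts. Its values were 15337, 131763 and 195336, or 12.7-fold at 4 h. It stood at 250 and 245 TPM with AAV-GFP against 304 and 258 TPM with AAV-Shisa3 (0.18 ± 0.10, adjusted p = 0.282), with both AAV-Shisa3 samples above. Dtx3l and Parp14 were among the genes that levelled off after 2 h. Dtx3l was at 782, 4326 and 4730, with a ratio of 4 h to 2 h of 1.09 (1.04 to 1.15). Parp14 was at 4153, 43390 and 48386, with a ratio of 1.12 (1.10 to 1.13). In the AAV samples Dtx3l was at 41.8 and 47.5 TPM against 50.9 and 47.0 TPM, and Parp14 at 149 and 159 TPM against 168 and 161 TPM. The groups overlapped for Dtx3l and lay barely apart for Parp14. Herc6, Parp9 and Usp18 had LPS folds at 4 h of 15.7, 8.57 and 64.6 and AAV log2 fold changes of 0.25, 0.20 and 0.32 (adjusted p = 0.259, 0.186 and 0.130).

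Mx1 and Mx2 belong to the dynamin-like Mx GTPases, a family whose working members can trap viral nucleocapsids. Ifi47 belongs to the immunity-related GTPases, Bst2 (tetherin) holds budding virions at the cell surface, and Ifitm3 blocks virus entry at the endosome. Only RNA was measured here, which does not show whether working protein is made. All 3 GTPases rose with AAV-Shisa3 and none of the other 4 genes did. Ifi47 was at 159 and 160 TPM with AAV-GFP against 288 and 259 TPM with AAV-Shisa3 (log2 fold change 0.77 ± 0.08, limma adjusted p = 0.0174). Mx1 was at 245 and 238 TPM against 378 and 330 TPM (0.55 ± 0.09, adjusted p = 0.0309), and Mx2 at 48.2 and 42.6 TPM against 73.8 and 68.1 TPM (0.63 ± 0.10, adjusted p = 0.0288). The groups were apart for all 3.

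With LPS, Mx1 and Mx2 rose early. Mx1 went from 881 to 45752 at 2 h and 55646 at 4 h, or 63.2-fold (59.9 to 66.7), most of it by 2 h. Mx2 went from 194 to 12436 and then to 8022, so that its 4 h value was 0.645 of its 2 h value (0.626 to 0.665), the lowest such ratio of the set. Ifi47 took a steadier course, from 450 to 5669 and 16477.

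Ifitm3, Bst2 and Ly6e had the highest levels of the set in the AAV samples. Ifitm3 was at 3598 and 3388 TPM with AAV-GFP against 3261 and 2899 TPM with AAV-Shisa3 (-0.18 ± 0.09, adjusted p = 0.236). Bst2 was at 2721 and 2506 TPM against 2277 and 2112 TPM (-0.25 ± 0.08, adjusted p = 0.120). For both genes the AAV-Shisa3 samples lay below. Ly6e, a GPI-anchored protein that restricts coronavirus entry, went the other way, at 2578 and 2286 TPM against 3093 and 2781 TPM (0.27 ± 0.10, adjusted p = 0.138). Ly6e passed with the replicate number as a block. With LPS, Ifitm3 went from 2145 to 4618 and 12172, and Bst2 from 730 to 2299 and 4854. Ly6e went from 3774 to 4426 and 9779, which was 1.17-fold at 2 h and 2.59-fold (2.52 to 2.67) at 4 h, the smallest LPS folds of the set. With reads scaled to library totals, Ly6e was lower than at 0 h by 2 h (log2 -0.43) and under 2-fold higher at 4 h (log2 0.55). Rtp4 was 8.81-fold higher at 4 h of LPS and overlapped between the AAV groups.

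The Schlafen genes of the mouse encode regulators of lymphoid and myeloid cell quiescence, some of which cleave or bind RNA, and Samd9l encodes a restriction factor of poxviruses. Of these 6 genes, Slfn2 rose with AAV-Shisa3, with 626 and 602 TPM against 819 and 761 TPM (log2 fold change 0.36 ± 0.07, limma adjusted p = 0.0479). Slfn4 was at 130 and 152 TPM with AAV-GFP against 133 and 127 TPM with AAV-Shisa3, with overlapping groups (-0.12 ± 0.10, adjusted p = 0.463). With LPS these 2 genes differed in course. Slfn2, the most abundant of the set per length at 0 h after Ifitm3, went from 3149 to 38260 and stayed at 37640. Slfn4 went from 46.3 to 1369 and 9748, or 210-fold (167 to 269), with 72 reads at 0 h. Its ratio of 4 h to 2 h, 7.12 (6.57 to 7.72), was the largest of the set. Samd9l had the smallest 4 h fold of the group, at 2387, 7040 and 21517, or 9.02, and stood at 52.4 and 52.8 TPM with AAV-GFP against 64.0 and 63.1 TPM with AAV-Shisa3 (0.27 ± 0.08, adjusted p = 0.0945). Slfn1, Slfn5 and Slfn8 were 44.7-fold, 15.6-fold and 13.3-fold higher at 4 h. Both AAV-Shisa3 samples lay above both AAV-GFP samples for all 3, without passing (log2 fold changes 0.18, 0.32 and 0.33; adjusted p = 0.241, 0.0713 and 0.0588). Slfn5 and Slfn8 passed when the samples were centred on their medians and with the replicate number as a block, and Slfn8 also with at least 1 TPM in every sample.

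The last 9 genes include Sp100 and Daxx, whose proteins sit in PML nuclear bodies and silence incoming viral DNA, and the glycan-binding galectin Lgals9. With AAV-Shisa3, Daxx rose and Sp100 fell. Daxx was at 226 and 212 TPM with AAV-GFP against 308 and 278 TPM with AAV-Shisa3 (log2 fold change 0.42 ± 0.08, limma adjusted p = 0.0464). Sp100 was at 338 and 349 TPM against 261 and 246 TPM (-0.44 ± 0.07, adjusted p = 0.0314), with no overlap. The fall of Sp100 did not pass when the samples were centred on their medians (-0.32, adjusted p = 0.0707). With LPS, both genes were higher. Sp100 went from 1065 to 2516 and 5251, or 4.93-fold (4.68 to 5.20), the smallest fold of these 9. Daxx went from 572 to 11916 at 2 h and 11173 at 4 h.

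Phf11d, a PHD finger protein, and Ifi44 went on rising from 2 h to 4 h of LPS. Phf11d went from 165 to 1367 and 5837, or 35.4-fold, the largest fold of these 9. Ifi44 went from 83.6 to 323 and 2201, with a ratio of 4 h to 2 h of 6.81 (5.78 to 8.08). In the AAV samples Phf11d was at 148 and 128 TPM against 132 and 115 TPM, and Ifi44 at 64.6 and 58.7 TPM against 58.8 and 47.7 TPM, with overlapping groups for both. Epsti1, Lgals9 and Xaf1 had both AAV-Shisa3 samples below both AAV-GFP samples without passing (log2 fold changes -0.31, -0.35 and -0.19; adjusted p = 0.0734, 0.156 and 0.195). Ifi35 and Tor3a had changes of 0.04 and 0.11. Their LPS folds at 4 h were 5.07 for Epsti1, 9.46 for Lgals9, 11.6 for Xaf1, 20.4 for Ifi35 and 12.1 for Tor3a.

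The genes that rose with AAV-Shisa3 had larger LPS folds than the others. Among the 15, the median LPS fold at 2 h was 20.8 (range 2.28 to 84.9), and among the other 37 it was 5.71 (1.17 to 34.3). At 4 h the medians were 41.3 and 11.7. Across the 52 genes, the AAV log2 fold change and the LPS log2 fold change had a Spearman correlation of 0.51 at 2 h and 0.47 at 4 h, and of -0.11 with the change from 2 h to 4 h. Over the 10546 genes kept in both tables, the same correlations were 0.31, 0.28 and 0.04. These are descriptions across genes, which share their libraries and are not independent replicates. The exceptions stood out on both sides. Ifit1bl1 was only 2.28-fold higher at 2 h of LPS, though 10.8-fold at 4 h, and had the largest AAV change. Isg15, Usp18 and Slfn4 were more than 25-fold higher at 2 h and did not pass with AAV-Shisa3, though Usp18 did with the replicate number as a block.

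**Figure D3:**
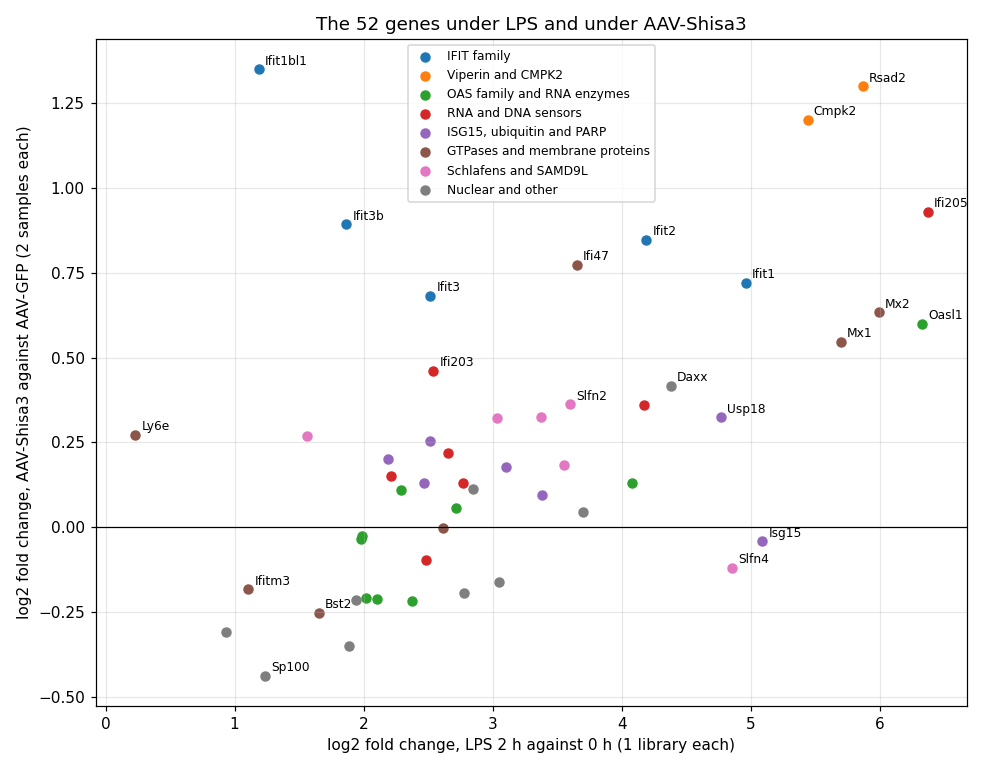
Log2 fold change at 2 h of LPS (1 library each) against log2 fold change with AAV-Shisa3 (2 samples per group) for the 52 genes, coloured by role. Rsad2, Cmpk2 and Ifi205 are high on both axes, and Isg15 is high at 2 h of LPS (5.09) and at -0.04 with AAV-Shisa3. Ifit1bl1 is at 1.19 at 2 h of LPS and at 1.35 with AAV-Shisa3, and it rose further by 4 h, which is not drawn.

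The 52 genes ranked high in AAV-GFP BMDMs already. Over 10530 genes kept in both tables and set on a per-length scale, the median percentile of the 52 genes was 93.0 with AAV-GFP, 77.3 in unstimulated BMDMs, 95.3 at 2 h of LPS and 97.3 at 4 h. With AAV-GFP, 32 of the 52 genes were above the 90th percentile, against 11 at 0 h and 48 at 4 h. For 46 of the 52 genes the percentile was higher with AAV-GFP than at 0 h. Isg20 stood at percentile 87.3 against 17.5, Usp18 at 96.1 against 51.3 and Isg15 at 99.4 against 76.8. The reverse held for Ifit1bl1, at 60.0 against 83.2, and Samd9l, at 75.5 against 91.5. The tables came from separate experiments, were normalized separately and were counted by steps not given in the sources used here, so the vector, the culture and the processing cannot be told apart, and no test of this difference was made.

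**Figure D4:**
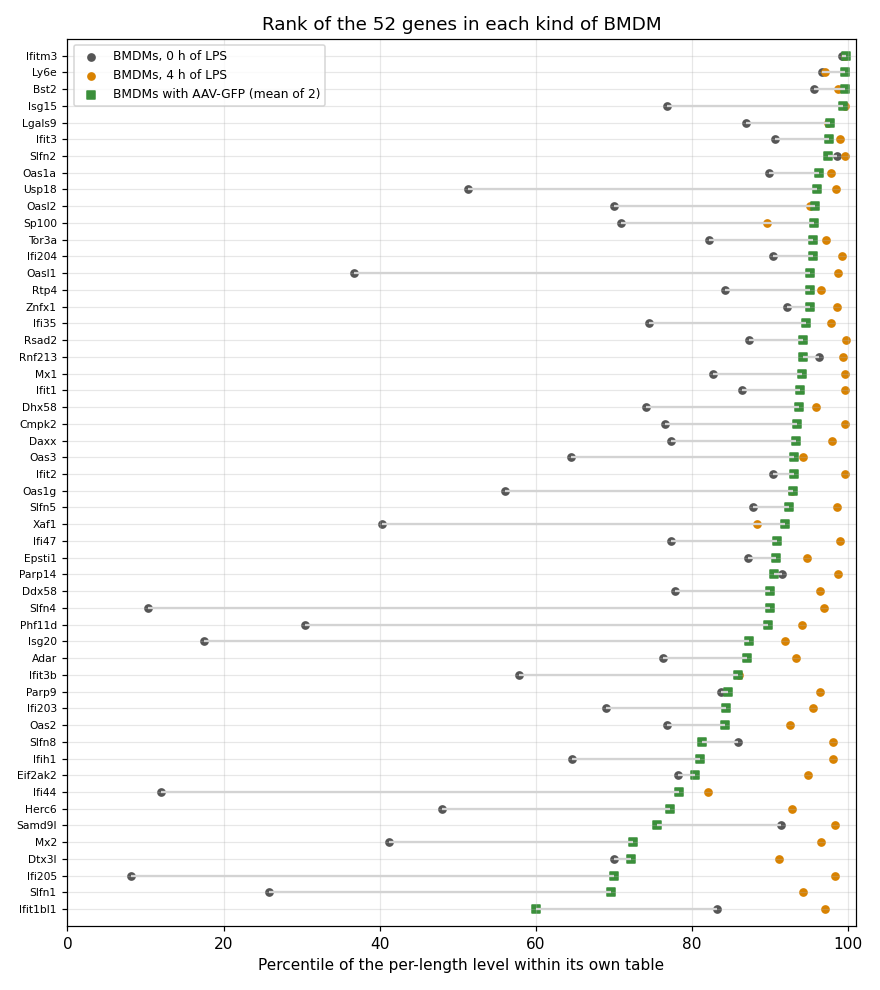
Percentile of the per-length level of each gene within its own table, for BMDMs at 0 h and 4 h of LPS (1 library each) and with AAV-GFP (mean of 2 samples). The AAV-GFP squares lie at 60.0 or above, the 4 h points at 82.1 or above, and the 0 h points spread from 8.2 to 99.2.

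Of 30 other genes of interferon induction and signalling, 28 were kept in each table. With LPS, 18 were at least 2-fold higher at 2 h, against 20.5% of all genes, and 20 at 4 h, against 22.2%. The adaptor Mavs was the 1 gene at least 2-fold lower at both times. On library totals 13 were higher at each time, against 13.25% of all genes at 2 h and 12.85% at 4 h. On that scale 3 were lower at 2 h and 5 at 4 h, with a median log2 change of all genes of -0.71 and -0.83. The share of all genes at least 2-fold lower was not counted. Ifnb1, the gene for interferon-β, had 1 read at 0 h, 35 at 2 h and 38 at 4 h. With so few reads, the ratio to 0 h was 119 at 2 h (95% exact interval 20.0 to 4825) and 32.1 at 4 h (5.42 to 1301), and the interferon-α genes Ifna2 and Ifna4 had 0 reads in all 3 libraries. Of the genes of the transcription factors STAT2 and IRF9, Stat2 was 9.15-fold and Irf9 2.21-fold higher at 4 h. On library totals Irf9 did not reach 2-fold, at 1.51-fold at 2 h and 1.25-fold at 4 h. Irf7, which amplifies interferon production, was 26.4-fold higher.

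With AAV-Shisa3, 2 of these 28 genes rose and 1 fell, where 2.23% of all genes rose and 4.10% fell. Those that rose were Socs1 (8.18 and 9.56 TPM against 16.2 and 16.7 TPM, log2 fold change 0.83 ± 0.12, limma adjusted p = 0.0263) and Socs3 (144 and 181 TPM against 273 and 298 TPM, 0.82 ± 0.12, adjusted p = 0.0272), both inhibitors of JAK kinases. Ticam2, an adaptor of TLR4 that leads to interferon-β, fell, with 24.1 and 24.1 TPM against 15.5 and 15.1 TPM (-0.62 ± 0.09, adjusted p = 0.0279). Stat2 (-0.13, adjusted p = 0.348), Irf7 (-0.14, adjusted p = 0.333) and Irf9 (-0.06, adjusted p = 0.648) did not pass. Ifnb1 was between 0.95 and 1.51 TPM in all 4 AAV samples, and the groups overlapped.

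Many of the 52 genes lie side by side. In GENCODE M21 on GRCm38, 26 of them lie within 200 kb of another, in 8 groups. The 5 IFIT genes span 99.3 kb of chromosome 19, from 34550694 to 34650009, and all 5 rose with AAV-Shisa3. Rsad2 and Cmpk2 on chromosome 12 are read away from each other from starts 12.8 kb apart, and both rose. Mx1 and Mx2 lie within 114 kb of chromosome 16 and both rose. Of Ifi204, Ifi203 and Ifi205, within 285 kb of chromosome 1, the latter 2 rose. Of Oasl2 and Oasl1, within 41.0 kb of chromosome 5, only Oasl1 rose. Of the 5 Schlafen genes within 239 kb of chromosome 11, Slfn2 passed, with Slfn8 and Slfn5 passing under some alternatives, while their LPS folds at 4 h reached 210. None of Oas2, Oas3, Oas1g and Oas1a, within 177 kb of chromosome 5, passed with AAV-Shisa3, nor did Parp14, Dtx3l and Parp9, which lie within 140 kb of chromosome 16.

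Promoter windows of 300 bases, 250 before and 50 from the start, were given by RefSeq for 41 of the 52 genes, 53 windows in all. The ISRE core was found in 21 windows (39.6%) and in 19 of the 41 genes, while 3.44% of all 32851 windows of the reference held it. The core of the NF-κB site, GGGA and CC separated by any 4 bases, was found in 22.6% of the 53 windows and 20.7% of all windows. The core of the gamma-activated site, TTC and GAA separated by any 3 bases, was found in 15.1% and 8.30%. Of the 21 matches to these 2 cores, 2 overlapped an ISRE core. Of the 32 ISRE core matches, 25 lay before the start. Matches were counted per window, so a Slfn8 site that lies in both overlapping windows of that gene was counted in each. Among the 13 genes with a window that rose with AAV-Shisa3, 7 held an ISRE core, and among the other 28 genes 12 did. The NF-κB core was held by 5 and 7 of them, and the core of the gamma-activated site by 1 and 7. Of the promoters printed above, those of Ifit1 and Rsad2 hold the core and belong to genes that rose, that of Isg15 holds the core and belongs to a gene that did not, and those of Ifit2 and Cmpk2 hold none and belong to genes that rose. No window was given for Mx1, Mx2, Oas2, Usp18, Dhx58, Ifi204, Parp9, Parp14, Rtp4, Ly6e and Tor3a.

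**Figure D5:**
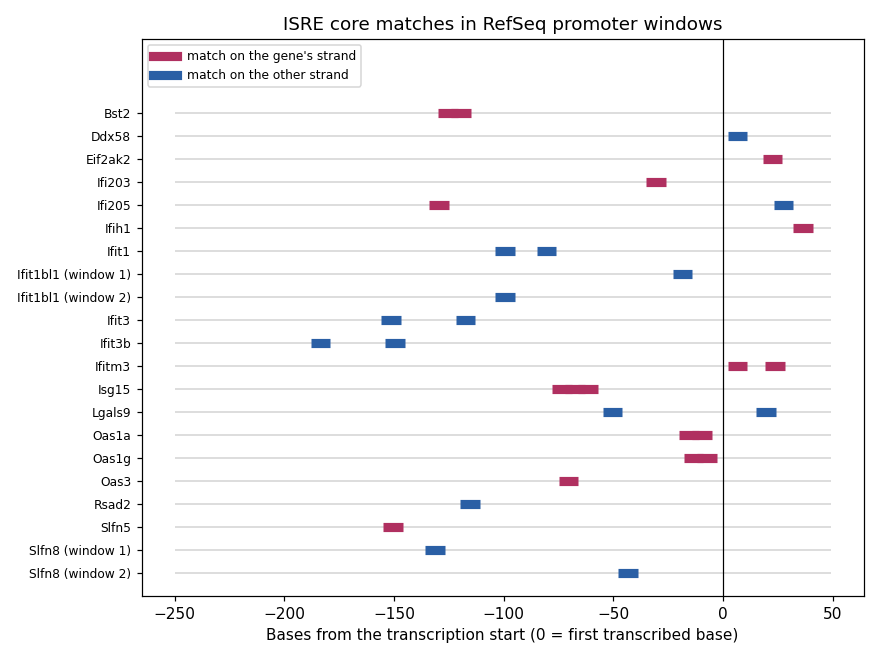
Position of each ISRE core match in bases from the transcription start, for the 21 RefSeq windows of 19 genes that hold one. Grey lines are the windows from 250 bases before to 49 after the start; matches lie on either strand, with first bases from -188 to 32.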

How the data were processed

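RNA-seq of 7 BMDM samples was analysed, and samples were grouped by their labels. For LPS, the authors deposited a signal per gene: reads over a factor common to the library. All values (100%) were whole multiples of 1 step within 0.01 reads, so read counts were recovered. No count test is possible with 1 library per time point, and folds were called at 2-fold on log2(value + 1). For AAV, the authors deposited values with sums from 999778 to 999818 per sample, read as TPM; the unit is inferred and the depth unknown. Build mm9 comes from the submitters' processing notes; aligner, counter and annotation are not given in the sources used here. Genes with a mean of at least 1 were kept. limma's trended test on log2(TPM + 1) with Benjamini-Hochberg adjustment over 11218 genes was used (threshold 0.05). These folds understate changes of low genes. The test was run on simulated data of 11218 genes with 200 changed by a log2 of 1, recovering 200 with 7 false calls. There, changes were set only in genes of higher level, and genes of like level shared the same spread. The simulation therefore cannot speak for smaller changes or for genes of unusual spread.

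The genes and lists were chosen with earlier results of these data known. Values per sample are given for genes past the AAV threshold, the largest and smallest 4 h LPS folds per role group, the 5 highest levels in each experiment, the 5 largest and 5 smallest ratios of 4 h to 2 h, and close paralogs. For the lists of other pathway genes, those past the threshold and Ifnb1, Stat2, Irf7 and Irf9 are named; 1 further gene is not reported here. The gene listed as Cgas in 1 table and Mb21d1 in the other was taken as 1 gene. Positions and lengths are from GENCODE M21 (GRCm38), which matched 99.2% of the LPS identifiers, and promoters from RefSeq GRCm38.p6; neither is the authors' build. For percentiles, LPS reads were divided by exon length. Alternatives were scaling, filter, pseudocount, limma's trend, the replicate number as a block and leaving out each sample. Tools were R 4.3.3, limma 3.58.1, edgeR 4.0.16 (TMM factors only), matplotlib 3.10.9, scipy 1.17.1, pandas 2.3.3, numpy 2.4.6 and Python 3.11.15.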

Additional observations from a re-analysis of the deposited data

How the results depend on the processing

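The number of the 52 genes that rose with AAV-Shisa3 was 15, with 1 that fell. It was 0 and 0 without limma's trend and 0 and 0 with no filter, 18 and 0 with samples centred on their medians (median log2 fold change 0.28, against 0.16), 17 and 1 with at least 1 TPM in every sample, and 15 and 1 with a pseudocount of 0.1. The replicate block gave 19 and 3, adding Ly6e, Slfn5, Slfn8 and Usp18 to those that rose and Bst2 and Lgals9 to Sp100. Over all genes, 250 rose and 460 fell, against 1 and 4 without the trend, 0 and 0 with no filter and 424 and 851 with the replicate block. The labels share only a number: the deviations of same-numbered samples correlated at 0.188 across genes, over 2 pairs. Leaving out each sample in turn gave 0 to 3 genes that rose and 0 that fell: 0 without AAV-GFP replicate 1 or AAV-GFP replicate 2, 1 (Rsad2) without AAV-Shisa3 replicate 1 and 3 (Cmpk2, Ifit1bl1 and Rsad2) without AAV-Shisa3 replicate 2 (over all genes 0 and 0, 0 and 0, 20 and 5, and 32 and 10), where the lone sample is assumed to vary like the other group; the median ran from 0.073 to 0.252. At an unadjusted p under 0.05, 22 were higher and 6 lower, against 19 and 2 without AAV-GFP replicate 1, 19 and 3 without AAV-GFP replicate 2, 18 and 9 without AAV-Shisa3 replicate 1 and 26 and 3 without AAV-Shisa3 replicate 2; over all genes the shares were 8.21% and 19.8%, against 5.53% and 15.4%, 6.88% and 11.6%, 6.44% and 13.7%, and 7.17% and 14.5%. The change of sign was confined, among the AAV alternatives run, to genes that had not passed. Centring gave 0.080 for Oas2, 0.091 for Eif2ak2, 0.020 for Dhx58, 0.075 for Isg15 and 0.11 for Rtp4. With 1 sample left out, the change ran from -0.075 to 0.0028 for Oas2, -0.042 to 0.30 for Isg20, -0.11 to 0.059 for Eif2ak2, -0.0088 to 0.23 for Adar, -0.15 to 0.066 for Isg15, -0.076 to 0.073 for Rtp4 and -0.071 to 0.16 for Ifi35. For LPS, centring moved the median of the 52 genes to 3.06 at 2 h and 4.02 at 4 h, and library totals moved it to 2.08, to 2.83 and, for 4 h against 2 h, to 0.91; the counts of these 52 genes at least 2-fold higher stayed within 1.5 times under every scaling, pseudocount and filter run, but the count at least 8-fold higher went from 23 to 15 at 2 h and from 43 to 23 at 4 h with library totals. Over all genes, those at least 2-fold higher went from 3668 to 2377 at 2 h and from 3958 to 2304 at 4 h with library totals, and for 4 h against 2 h from 3197 to 1830 with a pseudocount of 5 and to 2110 with a mean of at least 5. The cause of these differences was not tested. The read depth of the AAV samples is unknown, and the 2 h library is the shallowest for LPS.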
